A study of Mus musculus with 13 samples.

Results

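Chemokines and their receptors were followed in the mammary glands of mice with a conditional knockout of the tyrosine kinase gene Jak1 and of wildtype controls. Every gene whose symbol begins with Ccl, Cxcl, Ccr or Cxcr and a number was taken, which gave 54 of the 23951 symbols in the expression tables. They comprised 24 CC ligands, 13 CXC ligands, 11 CC receptors and 6 CXC receptors. Of these, 27 reached 1 FPKM in at least 3 libraries of a stage: 13 CC ligands, 8 CXC ligands, 4 CC receptors and 2 CXC receptors. Values are given for 26 of these. FPKM scales sequenced fragments by the length of the transcript and by the size of the library, so that levels of different genes can be compared.

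The 13 libraries were made from flash-frozen mammary tissue and fall into 4 groups. On day 7 of lactation the wildtype control glands carried the numbers M42186, M43768 and M44175, and the Jak1 conditional knockout glands M44174, M42734 and M43767. On day 2 of involution, when suckling has ended and the gland regresses, the wildtype controls were M44448, M43768 and M43914, and the conditional knockouts were M43196, M43767, M44176 and M44440. Values below follow these orders. The titles place M43768 and M43767 at both stages, and whether they mark the same animals was not given in the sources used here. Equally unstated there are the promoter that drives the deletion, the targeted allele, the strain and the ages.

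Chemokines are small secreted proteins that guide leukocytes by binding receptors coupled to G proteins. CC ligands such as Ccl2 mainly draw monocytes, T cells and eosinophils, CXC ligands such as Cxcl1 draw neutrophils through Cxcr2, and constitutive ligands such as Cxcl12 and Cxcl14 are made by stroma and epithelia. Neutrophils and then macrophages enter the involuting gland, and macrophages clear dying epithelial cells and milk. JAK1 transmits signals of interferons and interleukin 6 class cytokines, both of which are known to alter chemokine genes.

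The libraries of a stage differed in depth, which was estimated relative to the mean of the stage from the steps of 1 fragment among low values. Its extremes at lactation were 0.723 in control M44175 and 1.29 in knockout M44174. Those at involution were 0.485 in knockout M43196 and 1.5 in knockout M44440. Jak1 itself stood at 6.18 to 14.2 FPKM in controls and 9.51 to 11.2 FPKM in knockouts at lactation, and at 24.0 to 24.6 and 17.3 to 26.3 FPKM at involution. The groups overlapped at both stages. FPKM over a whole gene in bulk tissue can include RNA from cells without the deletion and RNA that lacks only the deleted stretch. It therefore is no check of the labels, and loss of Jak1 in the knockouts was not tested here. The milk protein gene Lalba, a marker of secretory epithelium, lay between 4808 and 24707 FPKM in the 13 libraries. One lactating control, M43768, stood apart from the other libraries of its stage in chemokines and receptors of lymphocytes, and results that rest on it are given with and without it. At involution, knockout M43196, the library of lowest depth, held the highest value in 13 of the 45 members above 0. Its FPKM summed over all genes, 1367558, was also the largest of that stage. How often M43196 was highest among all genes is not given here, so the 13 of 45 are not read as particular to chemokines.

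Of the 27 genes that were not described further, 9 were listed at 0 in all 13 libraries: Ccl19, Ccl21a, Ccl21b, Ccl21c, Ccl26, Ccl27b, Ccl28, Ccr1l1 and Cxcr1. A value of 0 in these tables can be an entry without an estimate. The milk protein genes Csn1s1, Csn2 and Wap, which lactating glands transcribe abundantly, were also listed at 0 in 13 of 13 libraries, so nothing is drawn from the zeros of Ccl28, a ligand known for guiding IgA plasma cells to the lactating gland. Ccl21a, Ccl21b and Ccl21c, and likewise Ccl27a and Ccl27b, are near-identical copies whose reads the counting may split. The other 18 were too low: Ccl1, Ccl17, Ccl20, Ccl22, Ccr3, Ccr4, Ccr6, Ccr7, Ccr8, Ccr9, Cxcl11, Cxcl13, Cxcl15, Cxcl3, Cxcl5, Cxcr3, Cxcr5 and Cxcr6. Just inside the limit stood Cxcl2, with 3 libraries at 1 FPKM or more at involution, and Ccr10, with 4. Just outside stood Ccl17, Ccl20, Cxcl13 and Cxcl15, with 2 libraries each at involution. The 27 genes all passed the limit at involution and 13 of them at lactation. Within a stage, none of the members tested passed through 1 genotype group alone.

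Sequence upstream of the transcription start was read for the described genes from RefSeq promoters on build GRCm38.p6, which held 38 of the 54 genes and 17 of the 27. The expression values were made on another build, mm9. The 4 promoters shown are those of Cxcl1 and Cxcl2, neighbouring neutrophil ligands whose levels ranked the 3 involuting control glands in the same order, of Cxcl10, an interferon-inducible ligand, and of Ccl8, the ligand that differed by the largest amount between knockout and control glands. Each run is the 250 bases before the start, 5′ to 3′ on the gene's strand, and capitals mark matches to the motifs named in the next paragraph. The intervals are chr5:90890995-90891244 (plus strand) for Cxcl1, chr5:90903649-90903898 (plus) for Cxcl2, chr5:92348890-92349139 (minus) for Cxcl10 and chr11:82114935-82115184 (plus) for Ccl8.
Cxcl1: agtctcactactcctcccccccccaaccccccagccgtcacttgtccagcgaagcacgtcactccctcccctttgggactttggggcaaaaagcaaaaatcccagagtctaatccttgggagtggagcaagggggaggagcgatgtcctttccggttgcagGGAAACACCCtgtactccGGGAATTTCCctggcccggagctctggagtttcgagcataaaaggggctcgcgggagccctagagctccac
Cxcl2: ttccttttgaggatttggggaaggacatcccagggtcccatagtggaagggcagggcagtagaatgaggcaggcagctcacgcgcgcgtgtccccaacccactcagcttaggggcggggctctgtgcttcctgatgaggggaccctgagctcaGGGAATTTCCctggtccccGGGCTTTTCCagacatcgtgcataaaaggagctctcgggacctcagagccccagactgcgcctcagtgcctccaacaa
Cxcl10: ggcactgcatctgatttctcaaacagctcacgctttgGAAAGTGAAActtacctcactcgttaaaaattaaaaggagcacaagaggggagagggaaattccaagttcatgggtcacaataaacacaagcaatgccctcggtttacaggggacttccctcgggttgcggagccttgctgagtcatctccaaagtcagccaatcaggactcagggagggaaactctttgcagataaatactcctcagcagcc
Ccl8: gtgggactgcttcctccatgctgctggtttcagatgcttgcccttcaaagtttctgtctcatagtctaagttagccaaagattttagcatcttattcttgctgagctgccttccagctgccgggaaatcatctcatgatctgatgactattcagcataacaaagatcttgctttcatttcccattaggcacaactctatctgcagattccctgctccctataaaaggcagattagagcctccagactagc

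Matches were sought on both strands for GGGNNTTTCC (a form of the NF-kB motif), TTCNNNGAA (the STAT motif) and GAAANNGAAA (a form of the IRF motif, bound by interferon regulatory factors). The NF-kB form was found in 1.41% of all 32851 promoter windows of this length. Among the 38 genes it was found in 6, namely Ccl9, Ccl20, Ccr3, Cxcl1, Cxcl2 and Cxcl3. Cxcl1 held it at 71 and 89 bases before the start, and Cxcl2 at 78 and 97 bases. The STAT motif was found in 7.02% of all windows and in 4 of the 38 genes, of which Cxcl14 was the only 1 among the 17 described. The IRF form was found in 2.98% of all windows and in Ccl19, Cxcl10 and Cxcl14. The Cxcl10 match began 213 bases before the start. The window of Ccl8 held none of the 3 motifs. A match describes letters and says nothing of binding.

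At involution the gland held a few abundant chemokines and many scarce ones, and the receptors were scarce. The 54 genes together summed to 493 to 961 FPKM in the involuting glands, of which receptors made up 14.0 to 26.1 FPKM. Cxcl14, a constitutive epithelial ligand, led with 207, 137 and 169 FPKM in controls and 224, 183, 126 and 134 FPKM in knockouts. It alone made up 19.6 to 40.9% of the summed FPKM in an involuting gland. Ccl8 exceeded it in 3 of the 4 knockouts and Cxcl17 in control M43768. Below Cxcl14, by their mean over the 7 libraries, followed Ccl8, Cxcl17, Ccl6, Cxcl12, Cxcl1, Cxcl16 and Ccl9. Neighbours in this order mostly overlapped between libraries: Cxcl17 ran from 16.3 to 155 FPKM, Ccl6 from 24.1 to 104 FPKM and Cxcl12 from 20.2 to 52.8 FPKM. The highest receptor was Ccr2, the monocyte receptor for Ccl2, at 2.75 to 11.1 FPKM. In the lactating glands the sum was 63.7 to 121 FPKM, and Cxcl14 was the largest entry in 5 of 6 libraries, with Ccl5 larger in control M43768. The plot of levels by library shows each described gene.

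**Figure D1:**
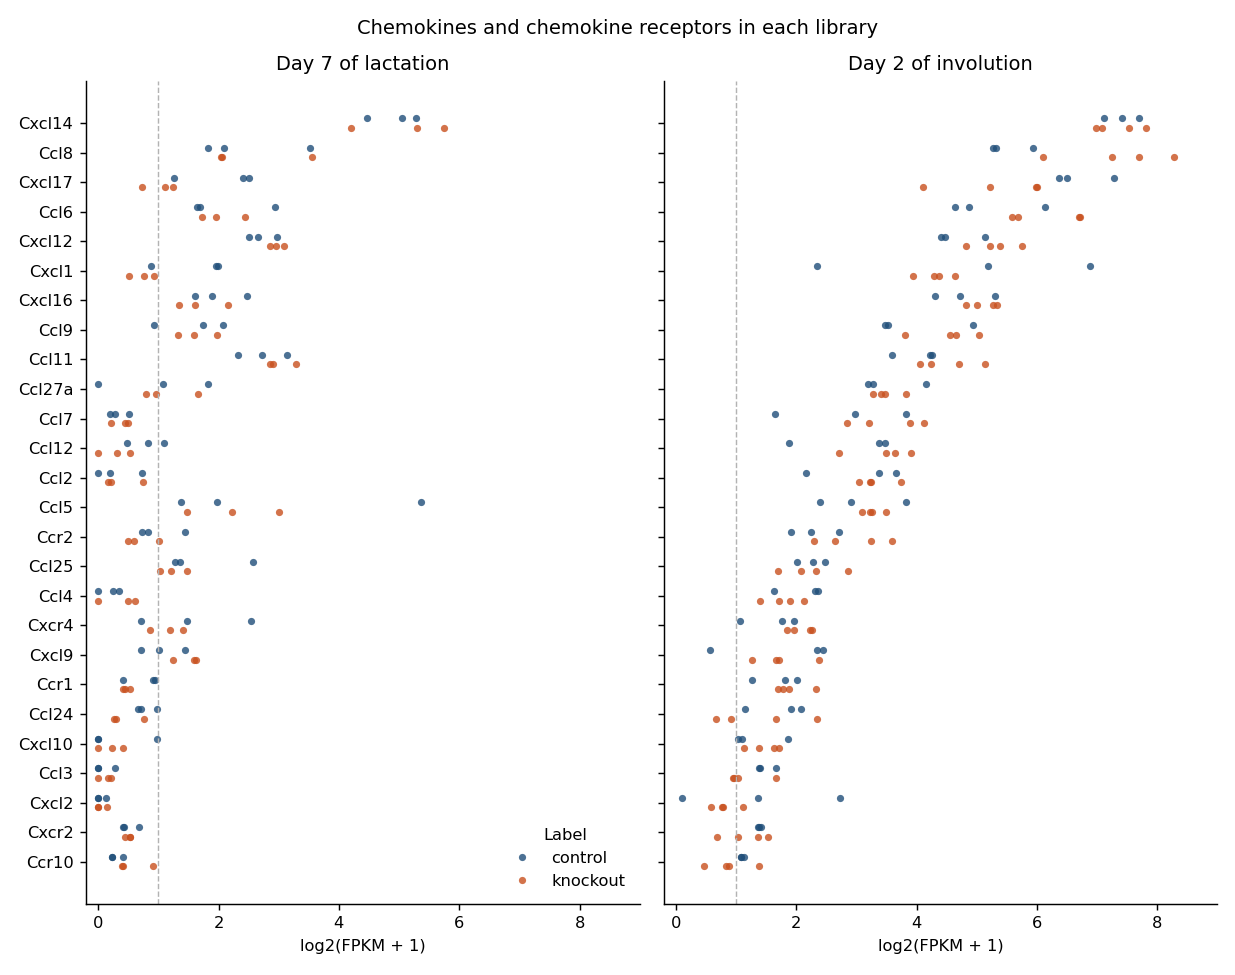
Levels of the 26 described chemokines and receptors in each library, as log2(FPKM + 1) on the horizontal axis, at day 7 of lactation (left) and day 2 of involution (right), with 1 point per gland, blue for controls and orange for knockouts. The dashed line marks 1 FPKM. Genes are ordered by their mean at involution, from Cxcl14 (126 to 224 FPKM there) down to Ccr10 (0.391 to 1.61 FPKM).

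Between knockout and control glands at involution, no member passed the adjusted test, and 2 separated the groups completely: Ccl8, higher in knockouts, and Cxcl17, lower in knockouts. Differences are given on the log2(FPKM + 1) scale after rescaling of libraries, with the standard error, from limma, and adjusted p-values are Benjamini-Hochberg values over every gene in the fit. None of 27 members had an adjusted p under 0.05 with limma, against 0.0640% of the 12509 genes tested. Unadjusted p under 0.05 occurred in 3 of 27, against 6.84% of all genes: Ccl8 and Cxcl12 higher (3.60% of all genes) and Cxcl17 lower (3.24%). Complete separation of groups occurred in 2 of 27, against 7.09% of all genes, 1 higher (2.67%) and 1 lower (4.42%). The median difference over the 27 was 0.21, against 0.0095 over all genes tested, and 16 of 27 differences were positive, against 51.8%. These counts depended on single glands. Unadjusted p under 0.05 occurred in 9 members without control M44448 (8.13% of all genes in that fit), in 6 without control M43914 (6.35%) or without knockout M44440 (9.31%), and in 1 (Ccl8) without control M43768 (4.53%). Separation occurred in 9 members without M44448 (17.2% of all genes), 6 without M43914 (15%), and 4 without M43768, M43767 or M44440 (11.5%, 10.3% and 14.4%). The share of all genes whose groups separated was higher in each of these runs than with all glands. The share with an unadjusted p under 0.05 (limma) was higher without M44448 or M44440 and lower without M43914 or M43768.

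**Figure D2:**
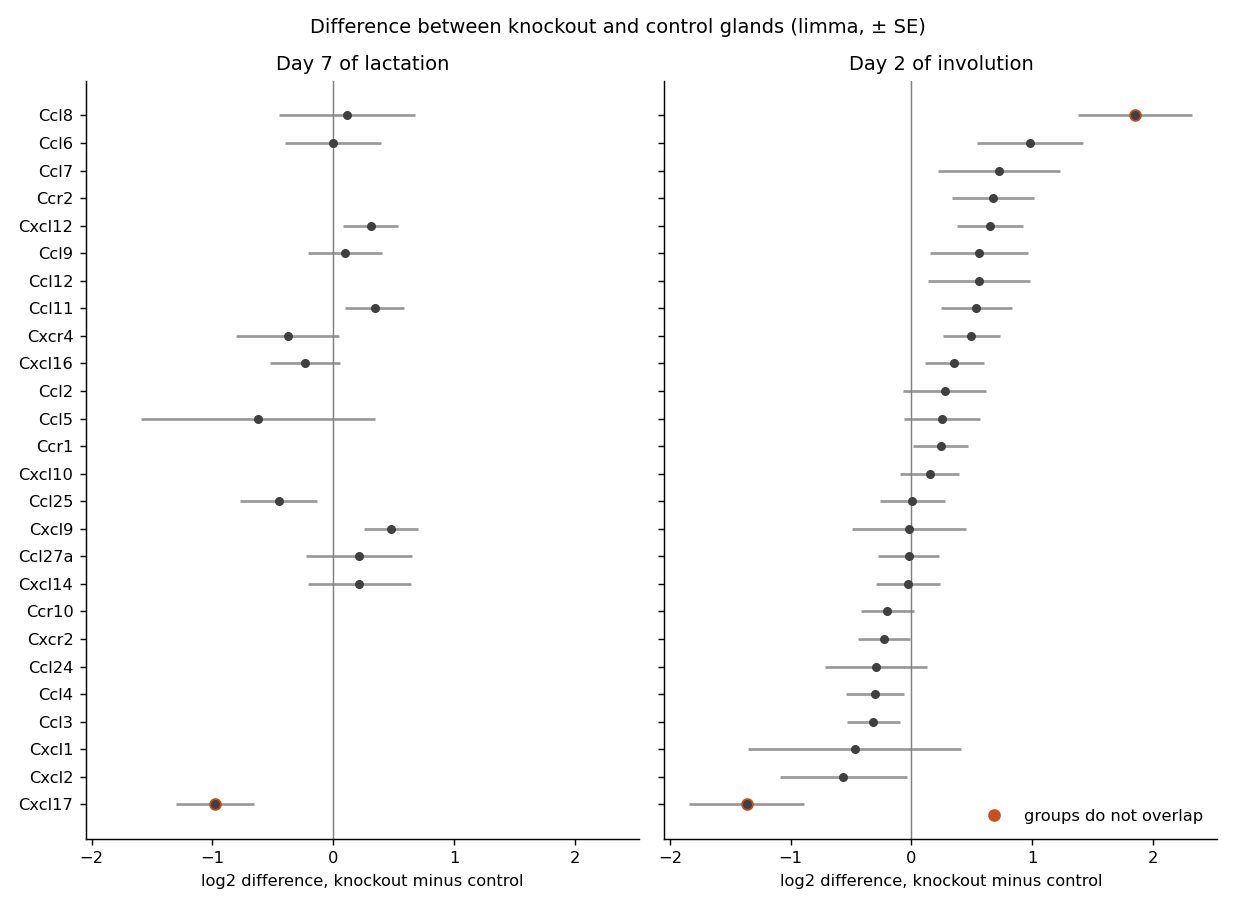
Difference between knockout and control glands for each described gene on the log2(FPKM + 1) scale, with points for the limma estimate and bars for its standard error, at lactation (left, 13 genes tested) and at involution (right, 26 genes shown of 27 tested). Orange rims mark genes whose groups did not overlap: Cxcl17 at both stages and Ccl8 at involution (1.85 ± 0.47).

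The CC ligands Ccl2, Ccl7, Ccl8 and Ccl12 and the receptor Ccr2, placed in 1 list by role, all had higher means in knockout than in control involuting glands. The list was named for monocyte attraction, and whether mouse Ccl8 draws monocytes was not tested. The difference was largest for Ccl8. Ccl8 stood at 37.7, 59.997 and 38.7 FPKM in controls and at 309.9, 207, 151 and 67.8 FPKM in knockouts. Every knockout gland was above every control gland. The means were 45.5 ± 12.6 FPKM (SD, n = 3) and 184 ± 102 FPKM (SD, n = 4), a log2 difference of 1.85 ± 0.47 with an adjusted p of 0.418 (limma, unadjusted p = 0.00445). Over the 14 alternatives it ran from 1.54 (without knockout M43196) to 2.27 (without knockout M44440), with adjusted p from 0.0825 to 0.857. Ccl8 took 5.71 to 10.5% of the summed chemokine and receptor FPKM in controls and 13.7 to 32.2% in knockouts. Within each group, its order across glands was the reverse of relative depth, which was 1.17, 0.695 and 1.02 in controls and 0.485, 0.932, 1.19 and 1.5 in knockouts. The part of depth in the result was not tested.

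Ccr2, through which monocytes follow Ccl2, Ccl7 and Ccl12, stood at 5.57, 2.75 and 3.75 FPKM in controls and at 11.1, 8.46, 5.28 and 3.92 FPKM in knockouts. Only the control M44448 reached into the range of the knockouts. The log2 difference was 0.68 ± 0.34 (limma, adjusted p = 0.818). Ccl7 stood at 2.13, 6.84 and 13.1 FPKM in controls and 8.25, 6.17, 13.8 and 16.4 FPKM in knockouts (log2 difference 0.73 ± 0.51, adjusted p = 0.938 with limma). Ccl12 stood at 2.68, 9.35 and 10.1 FPKM and at 11.6, 5.53, 10.3 and 14.0 FPKM (0.56 ± 0.42). Ccl2 stood at 3.48, 9.43 and 11.6 FPKM and at 8.41, 7.29, 12.4 and 8.47 FPKM (0.27 ± 0.34). Control M44448 was the lowest of the 7 glands for Ccl7, Ccl12 and Ccl2, and the other controls overlapped the knockouts for all 3. Ccl2, Ccl7, Ccl11, Ccl12 and Ccl8 follow each other in this order on chromosome 11.

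Levels of macrophage markers are given beside these ligands. Of 10 macrophage markers tested at involution, 8 were higher in knockouts by mean log2 value and 1 had an unadjusted p under 0.05 with limma: Mrc1, a scavenger receptor, at 4.73, 6.57 and 6.25 FPKM in controls and 13.8, 8.92, 13.6 and 8.08 FPKM in knockouts. The summed markers were 459, 346 and 376 FPKM in controls and 893, 475, 574 and 294 FPKM in knockouts, so the groups overlapped. Fibroblast markers were higher in knockouts for 8 of 8, with sums of 200.1 to 464 FPKM and 327 to 874 FPKM, and 3 had an unadjusted p under 0.05. Adipocyte markers were higher in 8 of 8, with overlapping sums, and basal epithelial markers in 7 of 8, none with an unadjusted p under 0.05. The basal sums did not overlap, at 246 to 408 FPKM in controls and 464 to 535 FPKM in knockouts. Sums of B and plasma cell markers did not overlap either and were lower in knockouts, at 692 to 939 FPKM in controls and 334 to 652 FPKM in knockouts. The B cell genes Cd79a and Ms4a1 made up little of these sums. Of 6 tested markers of this list, 1 was higher in knockouts and 2 had an unadjusted p under 0.05 with limma. Over all genes tested at involution, 51.8% were higher in knockouts and 6.84% had an unadjusted p under 0.05 (limma). Higher in knockouts were also 4 of 9 luminal, 5 of 8 endothelial, 2 of 4 neutrophil and 3 of 5 dendritic cell markers. The counts were 3 of 5 for T and NK cells and 3 of 4 for lymph node stroma. The lymph node list includes Glycam1. It summed to 28738 to 106080 FPKM in lactating glands, against 1.76 to 44.0 FPKM for T and NK cell markers. It is therefore no measure of lymph node content. Skeletal muscle had 4 of 6 and skin keratinocytes 1 of 1 higher in knockouts, but their sums differed widely between single glands. Skin markers summed to 147 FPKM in knockout M43767 and to 1.48 to 3.64 FPKM in the other involuting glands. Muscle markers summed to 4464 FPKM in knockout M44176, 1154 FPKM in control M44448 and 4.28 FPKM in knockout M43196. The part of these cell types in the values of Ccl8 and Cxcl12 was not tested. In bulk tissue, fewer cells of a type and less RNA per cell cannot be told apart.

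**Figure D3:**
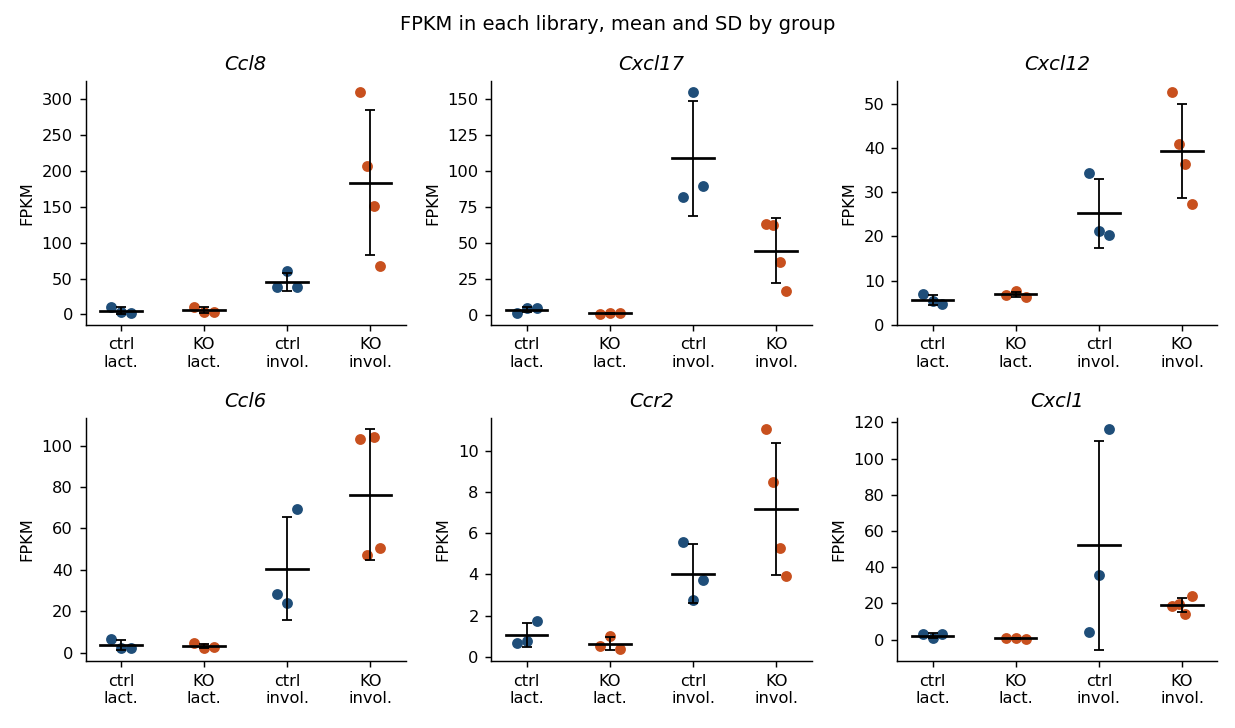
FPKM of Ccl8, Cxcl17, Cxcl12, Ccl6, Ccr2 and Cxcl1 in each gland, by group (ctrl, wildtype control; KO, knockout; lact., day 7 of lactation; invol., day 2 of involution), with the mean as a thick line and the SD as a bar, n = 3, 3, 3 and 4. Ccl8 in involuting knockouts (67.8 to 309.9 FPKM) lies above all controls, and Cxcl17 in involuting knockouts (16.3 to 63.2 FPKM) lies below all controls (82.0 to 155 FPKM).

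Among the inflammatory CC ligands and receptors, 5 of 7 had a positive and 2 a negative difference at involution, none separated the groups, and none had an unadjusted p under 0.05. Ccl6 and Ccl9 are rodent ligands made by myeloid cells that act on Ccr1. Ccl6 stood at 28.3, 24.1 and 69.5 FPKM in controls and at 103, 47.2, 104 and 50.5 FPKM in knockouts. Control M43914 lay between the lower and the upper pair of knockouts, and the log2 difference was 0.98 ± 0.44 (limma, adjusted p = 0.744). Without M43914 Ccl6 separated the groups (1.43 on the log2 scale), as did Ccl9. Ccl9 stood at 10.6, 10.1 and 29.6 FPKM and at 24.1, 13, 31.9 and 22.6 FPKM (0.56 ± 0.41). Their receptor Ccr1 stood at 1.4, 2.53 and 3.05 FPKM and at 2.69, 2.43, 4.05 and 2.24 FPKM (0.24 ± 0.23), with the groups overlapping.

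Ccl3 and Ccl4, ligands that leukocytes release on activation, had negative differences. Ccl3 stood at 2.17, 1.64 and 1.62 FPKM in controls and at 1.05, 2.18, 0.957 and 0.930 FPKM in knockouts. Knockout M43767 lay just above the highest control while the other 3 knockouts lay below all controls (log2 difference -0.31 ± 0.22, limma adjusted p = 0.938). Without M43767 the groups separated. Ccl4 ran from 2.09 to 4.16 FPKM in controls and from 1.63 to 3.36 FPKM in knockouts. Ccl5, a T cell ligand, ran from 4.24 to 13.2 FPKM and from 7.57 to 10.3 FPKM. The log2 differences of Ccl4 and Ccl5 were -0.30 ± 0.24 and 0.25 ± 0.32, and the groups overlapped for both.

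The neutrophil-attracting ligands Cxcl1 and Cxcl2 and their receptor Cxcr2 had negative differences, and Cxcl1 had the largest standard error of the 27 members. Cxcl1 stood at 4.09, 35.5 and 116 FPKM in controls and at 18.5, 19.7, 14.3 and 23.9 FPKM in knockouts. The knockouts thus lay close together inside the range of the controls (log2 difference -0.47 ± 0.88, limma adjusted p = 0.996). Cxcl2 ran from 0.0722 to 5.64 FPKM in controls, in the same order of glands as Cxcl1, and from 0.496 to 1.18 FPKM in knockouts. Without control M44448, both separated the groups as lower in knockouts. Cxcr2 ran from 1.58 to 1.68 FPKM in controls and from 0.614 to 1.90 FPKM in knockouts (-0.22 ± 0.22). Summed neutrophil markers, mostly S100a8 and S100a9, were 55.8, 163 and 236 FPKM in controls, in the order of Cxcl1, and 437, 70.1, 35.7 and 34.9 FPKM in knockouts. Their part in the Cxcl1 values was not tested.

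The interferon-inducible ligands Cxcl9 and Cxcl10, which draw T cells through Cxcr3, did not separate the groups. Cxcl9 stood at 4.11, 4.48 and 0.486 FPKM in controls and at 1.42, 2.19, 4.20 and 2.29 FPKM in knockouts (log2 difference -0.02 ± 0.47). Control M43914 was the lowest gland and the other controls were among the highest. Cxcl10 ran from 1.06 to 2.63 FPKM in controls and from 1.2 to 2.29 FPKM in knockouts (0.15 ± 0.24). Their receptor Cxcr3 was too low in every library to be tested.

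The stromal ligand Cxcl12 and its receptor Cxcr4, a pair that holds leukocytes and progenitors in tissue, had positive differences at involution. Cxcl12 stood at 34.3, 21.2 and 20.2 FPKM in controls and at 52.8, 41.0, 36.5 and 27.3 FPKM in knockouts. Control M44448 overlapped only the lowest knockout, M44440. The log2 difference was 0.65 ± 0.27 (limma, unadjusted p = 0.0452, adjusted p = 0.727). When any single gland other than M44448 or M44440 was left out, the unadjusted p (limma) was no longer under 0.05. Cxcr4 stood at 2.92, 2.39 and 1.09 FPKM and at 3.81, 2.92, 2.59 and 3.69 FPKM (0.50 ± 0.24, adjusted p = 0.798 with limma). Again only control M44448 reached into the knockouts. Ackr3, the scavenging receptor of Cxcl12, stood at 34.3, 48.6 and 60.2 FPKM in controls and at 35.2, 28.7, 41.1 and 29.3 FPKM in knockouts (-0.45 ± 0.22, adjusted p = 0.806 with limma), the opposite direction to Cxcl12.

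Cxcl17, a ligand of mucosal epithelia, was lower in knockouts at both stages. At involution it stood at 82.0, 155 and 89.6 FPKM in controls and at 63.2, 62.3, 36.3 and 16.3 FPKM in knockouts. Every knockout lay below every control. The means were 109 ± 39.9 FPKM (SD, n = 3) and 44.5 ± 22.6 FPKM (SD, n = 4), a log2 difference of -1.36 ± 0.47 with an adjusted p of 0.610 (limma, unadjusted p = 0.0207). Without control M43768, the highest gland, the difference was -1.09 and its unadjusted p exceeded 0.05. Summed luminal epithelial markers overlapped between groups at involution, from 13577 to 35213 FPKM in controls and from 12306 to 28022 FPKM in knockouts. These sums are dominated by milk protein genes and include Csn3, which was listed at 0 in 6 of 13 libraries and reached 15123 FPKM elsewhere. They are therefore no measure of luminal cell content. Cxcl17 also followed the reverse of relative depth within each involuting group, and the part of depth was not tested.

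The other described ligands overlapped between groups at involution. Cxcl14 differed by -0.03 ± 0.26 on the log2 scale. Cxcl16, a membrane-bound ligand of Cxcr6, stood at 18.8, 25.5 and 38.6 FPKM in controls and at 37.6, 31.2, 27.2 and 39.6 FPKM in knockouts (0.36 ± 0.25, limma adjusted p = 0.938). Ccl11, which attracts eosinophils through Ccr3, stood at 18.0, 17.6 and 11.1 FPKM and at 34.2, 18.0, 25 and 15.6 FPKM (0.54 ± 0.29, limma adjusted p = 0.883). The lowest knockout, M44440, lay below 2 of the controls. Ccl24, another eosinophil ligand, ran from 1.21 to 3.22 FPKM and from 0.593 to 4.10 FPKM (-0.30 ± 0.42).

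The mucosal and skin ligands and the receptor Ccr10 showed differences below their standard errors at involution. Ccl27a, a skin ligand of Ccr10, stood at 8.73, 16.8 and 8.18 FPKM in controls and at 9.58, 10.2, 8.74 and 13.2 FPKM in knockouts (-0.02 ± 0.25). Ccl25, known from thymus and gut as the ligand of Ccr9, stood at 3.03, 3.84 and 4.55 FPKM and at 4.01, 3.24, 2.23 and 6.24 FPKM (0.01 ± 0.27). Ccr10 stood at 1.13, 1.13 and 1.2 FPKM and at 1.61, 0.839, 0.778 and 0.391 FPKM (-0.20 ± 0.22). Control values of Ccr10 were nearly equal, and the knockouts lay on both sides of them, with the highest value in M43196, the library of lowest depth.

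At day 7 of lactation, 13 members were tested and Cxcl17 was the only 1 whose groups did not overlap. None of the 13 had an adjusted p under 0.05 with limma, against 0.0105% of 9560 genes. Unadjusted p under 0.05 occurred in 1 of 13, against 2.38% of all genes and 0.607% with a lower value in knockouts. Separation occurred in 1 of 13, against 6.06% and, as lower in knockouts, 3.17%. The median difference was 0.098, against 0.0082 over all genes, and 7 of 13 were positive, against 51.2%. Cxcl17 stood at 1.4, 4.28 and 4.68 FPKM in controls and at 0.657, 1.37 and 1.16 FPKM in knockouts. The gap was narrow, since control M42186 and knockout M42734 nearly met. The log2 difference was -0.98 ± 0.33 (limma, unadjusted p = 0.0177, adjusted p = 0.998), and it ran from -1.43 to -0.79 over the alternatives with adjusted p from 0.0967 to 1. Without control M43768 or without knockout M44174, its unadjusted p was no longer under 0.05.

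Cxcl9 stood at 0.641, 1.02 and 1.73 FPKM in lactating controls and at 1.38, 2.08 and 2.02 FPKM in lactating knockouts (log2 difference 0.48 ± 0.22, limma adjusted p = 0.998). Only control M44175 overlapped the knockouts, and without it Cxcl9 and Ccl11 separated the groups, both higher in knockouts. Ccl11 stood at 5.57, 4.03 and 7.78 FPKM and at 6.48, 8.79 and 6.2 FPKM (0.35 ± 0.24). Ccl25 stood at 1.42, 1.57 and 4.94 FPKM and at 1.77, 1.30 and 1.04 FPKM (-0.45 ± 0.32), where control M44175 alone was high. Cxcl12 stood at 6.89, 5.32 and 4.66 FPKM and at 6.76, 7.52 and 6.26 FPKM (0.31 ± 0.23), with control M42186 among the knockouts. Unadjusted p under 0.05 occurred in 3 members without control M44175 (4.24% of all genes) and in none without control M43768 (2.45%). The number of members separating the groups was 4 without control M42186 (22.3% of all genes) or knockout M44174 (15.2%), 3 without control M44175 (17.7%) and 2 without knockout M43767 (9.48%).

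The knockout effect at involution minus that at lactation was tested for all 27 members, since a difference seen at 1 stage alone does not show that the stages differ. None had an adjusted p under 0.05 with limma, against 0.0793% of 12605 genes, and none an unadjusted p under 0.05, against 3.36%. Of 27 contrasts 18 were positive, against 51.0%, with a median of 0.26, against 0.0075 over all genes. Ccl8 had the smallest p, with a contrast of 1.74 ± 0.81 (limma, adjusted p = 0.999, unadjusted p = 0.0524). At lactation Ccl8 stood at 10.4, 3.26 and 2.54 FPKM in controls and at 10.7, 3.11 and 3.15 FPKM in knockouts, with 1 high gland in each group. Over the alternatives the contrast of Ccl8 ran from 1.18 (without lactating control M42186) to 2.24 (without lactating knockout M44174), with adjusted p from 0.450 to 1.00. The count of members with an unadjusted p under 0.05 was 5 without involuting control M43914 (3.51% of all genes in that fit), 3 without involuting control M44448 (3.4%) and at most 2 without any other library (2.4 to 5.88%).

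Ccr2 and Ccl12 came next, with contrasts of 0.94 ± 0.45 and 1.07 ± 0.54. Ccr2 stood at 0.664, 0.776 and 1.73 FPKM in lactating controls and at 0.518, 1.01 and 0.404 FPKM in lactating knockouts. Ccl12 stood at 0.782, 1.13 and 0.392 FPKM and at 0.440, 0 and 0.242 FPKM. For both the lactating knockouts had the lower mean, whereas the involuting knockouts had the higher. Ccr10 (-0.50 ± 0.29) stood at 0.171, 0.329 and 0.171 FPKM in lactating controls and at 0.336, 0.878 and 0.317 FPKM in knockouts. Ccr1 (0.51 ± 0.30) stood at 0.922, 0.333 and 0.891 FPKM and at 0.445, 0.327 and 0.367 FPKM. All of these lactation values lie near or under 1 FPKM, where the added 1 compresses differences.

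Levels at involution are set beside those at lactation without a test, because the stages were deposited as separate tables that may have been normalized separately. As deposited, involution values of all genes were higher as a body: the geometric mean rescaling factor was 2.417 times that of lactation, or 1.273 on the log2 scale. After all 13 libraries were rescaled together, the involuting libraries were all above the lactating ones for 15 of 27 members in control glands, against 27.1% of 12605 genes. In knockout glands this held for 18 of 27, against 29.3%. No member was lower in all involuting libraries in either group, against 14.9% and 17.9%. As deposited, the counts were 22 and 24, against 73.6% and 80.5% of all genes. A mean at least 1 higher on the log2 scale after rescaling was found for 13 of 27 in controls (11.3% of all genes) and 13 of 27 in knockouts (11.4%). All 27 members passed the limit of 1 FPKM at involution and 13 at lactation, against 12509 and 9560 of the 12605 genes. Members that passed only at involution were selected by the stage where they are high. The shares over all genes are therefore not a like measure for the members.

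In control glands, Cxcl17, Cxcl1, Ccl2 and Ccl6 stood furthest above their lactation level. These are group differences after rescaling, on the log2(rescaled FPKM + 1) scale, and the FPKM are as deposited. Cxcl17 led with 3.56 in control and 3.35 in knockout glands. Cxcl1 followed with 2.18 and 2.72, from 2.90, 0.840 and 2.97 FPKM in lactating controls and 0.687, 0.897 and 0.432 FPKM in lactating knockouts. In controls the stages overlapped for Cxcl1 after rescaling, because M44448 remained low at involution. Ccl2 differed by 2.13 and 2.26, from 0.144, 0 and 0.648 FPKM in lactating controls and 0.121, 0.159 and 0.668 FPKM in lactating knockouts. Ccl7 differed by 1.83 and 2.42, from 0.145, 0.421 and 0.219 FPKM and 0.369, 0.160 and 0.406 FPKM. The monocyte ligands Ccl2 and Ccl7 were thus under 1 FPKM in all lactating glands and above 2 FPKM in all involuting ones.

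Ccl6 differed between stages by 2.02 in controls and 3.00 in knockouts, from 6.67, 2.24 and 2.11 FPKM and 4.45, 2.32 and 2.87 FPKM at lactation. Ccl8 differed by 1.89 and 3.62. Ccl27a differed by 1.75 and 1.43, from 1.12, 0 and 2.56 FPKM and 0.730, 0.944 and 2.16 FPKM at lactation. All involuting glands exceeded all lactating glands for these 3 ligands in both groups. Cxcl16 differed by 1.70 and 2.33, from 2.70, 2.06 and 4.58 FPKM and 2.05, 1.53 and 3.48 FPKM. Ccl9 differed by 1.39 and 1.83, from 2.34, 0.893 and 3.20 FPKM and 2.92, 1.5 and 2.01 FPKM. Cxcl14 differed by 1.24 and 1.01, from 37.8, 21.0 and 32 FPKM and 17.4, 52.5 and 38.3 FPKM, and its knockout stages overlapped. The stage differences of the 27 members had a median of 0.98 in controls and 0.85 in knockouts, against 0.18 and 0.19 over all 12605 genes. These medians carry the same limit, since more members than 13 did not pass the limit of 1 FPKM at lactation.

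Ccl3, an inflammatory ligand, was listed at 0, 0.214 and 0 FPKM in lactating controls and at 0.125, 0.163 and 0 FPKM in lactating knockouts, and all involuting glands were above these values. The 4 members below showed no higher mean at involution in control glands or one near 0: Ccl5 (-0.91), Cxcr4 (-0.78), Ccl25 (-0.41) and Cxcl9 (0.01). As deposited these differences were 0.14, 0.02, 0.52 and 0.73, so the directions of Ccl5, Cxcr4 and Ccl25 turn with the scaling. For Ccl5 and Cxcr4 the lactating control M43768 was the highest of all 13 libraries. Without it the control difference between stages was 0.40 for Ccl5 and -0.22 for Cxcr4, so the direction of Ccl5 turns with this gland. Between genotypes at lactation, Ccl5 differed by -0.62 ± 0.97 with M43768 and by 0.62 ± 0.46 without it (limma adjusted p = 0.998 and 0.925). Cxcr4 differed by -0.38 ± 0.43 and by 0.12 ± 0.28 (limma adjusted p = 0.998 and 0.940). Cxcr4 stood at 0.645, 4.82 and 1.78 FPKM in lactating controls and at 0.817, 1.66 and 1.30 FPKM in lactating knockouts.

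**Figure D4:**
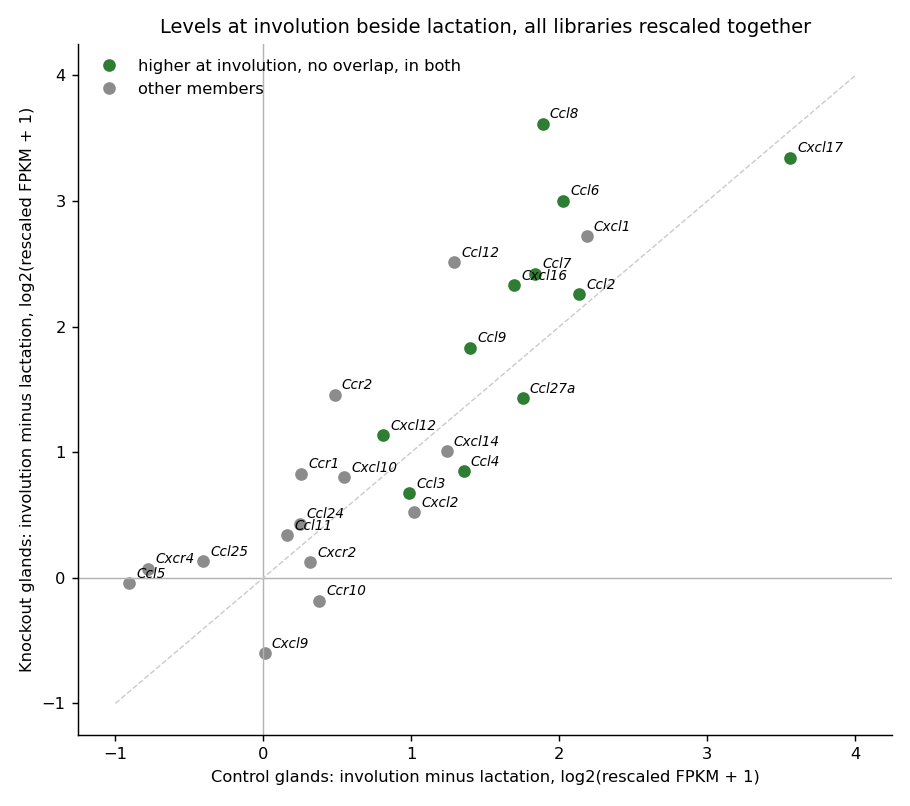
Difference between involution and lactation for each described gene in control glands (horizontal axis) and knockout glands (vertical axis), as the difference of group means of log2(rescaled FPKM + 1) with all 13 libraries rescaled together. Green points are genes whose involuting libraries all exceeded the lactating ones in both groups, grey points are the others, and the dashed line marks equal differences. Ccl8 lies furthest above the line (1.89 and 3.62), and Cxcl17 lies furthest to the right (3.56 and 3.35).

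Of the 7 listed ligands and receptors of lymphoid tissue, Ccl19 and the 3 Ccl21 genes were listed at 0 throughout, and Ccr7, Cxcl13 and Cxcr5 were highest in a single gland, the lactating control M43768. Ccr7, which guides lymphocytes and dendritic cells to lymph nodes, was 6.29 FPKM there and 0 to 0.162 FPKM in the other 5 lactating libraries. Cxcl13, the ligand of B cell follicles, was 7.06 FPKM against 0 to 0.992 FPKM, and its receptor Cxcr5 1.71 FPKM against 0 to 0.144 FPKM. At involution Cxcl13 reached 4.64 FPKM in control M43914 and 1.12 FPKM in control M43768 and stayed under 0.5 FPKM in the other glands. Ccl22, a ligand made by dendritic cells, was 4.67 FPKM against 0 to 0.238 FPKM. Ccl5 was 40.2 FPKM against 1.59 to 7.01 FPKM. M43768 had the highest lactation value in 16 of the 42 genes of the 54 that were above 0 at that stage. The same count over all genes is not given here.

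Lymphocyte markers were high in the same lactating gland. Cd3e, of T cells, was 6.10 FPKM against 0.0653 to 0.465 FPKM, and the B cell genes Cd79a and Ms4a1 were 14.3 and 3.65 FPKM against 0.195 to 1.27 and 0 to 0.0434 FPKM. Cr2, a marker of follicular dendritic cells and B cells, was 1.23 FPKM against 0 to 0.0159 FPKM. The summed T and NK cell markers were 44.0 FPKM against 1.76 to 8.06 FPKM. At involution, the control that carries the same number had 0.242 FPKM of Ccr7 and 0.348 FPKM of Cd3e, within the range of the other libraries. Without lactating M43768, the log2 contrasts between genotypes at lactation had a median of -0.067 over the tested members in place of 0.098. The part of lymphoid tissue in the values of this gland was not tested.

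**Figure D5:**
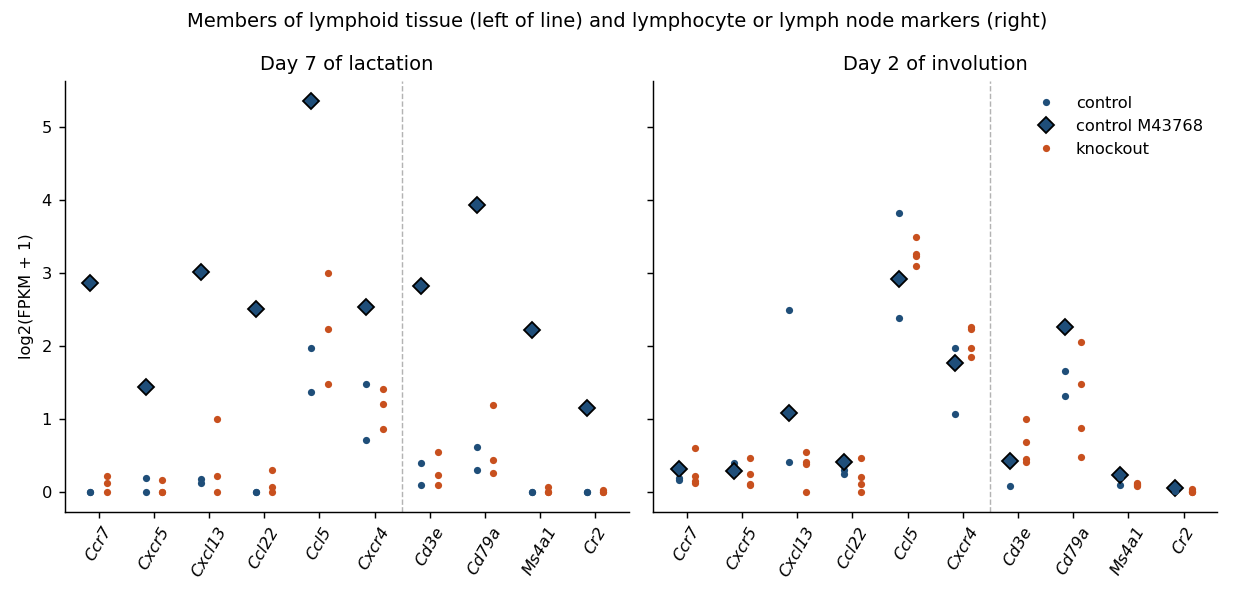
Level as log2(FPKM + 1) of 6 chemokines or receptors of lymphocytes (left of the dashed line) and 4 lymphocyte or lymph node markers (right), at lactation and involution, with 1 point per gland. The diamond marks the control glands numbered M43768, which lie above all other glands at lactation (Ccr7 6.29 FPKM, Cd79a 14.3 FPKM) and among them at involution except for Cd79a (3.81 FPKM) and Ms4a1 (0.173 FPKM), where it was highest.

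Genes of the chemokine system outside the symbol rule were taken from a list of 17 symbols, of which 14 were in the tables and 11 were tested at involution. None had an adjusted p under 0.05 with limma, and 7 of 11 had an unadjusted p under 0.05, against the 6.84% of all genes: 5 higher and 2 lower in knockouts. Pf4, a CXC ligand of platelets and macrophages, stood at 25.6, 31.2 and 25.3 FPKM in controls and at 118, 45.5, 83.1 and 42.3 FPKM in knockouts (log2 difference 1.27 ± 0.35, limma adjusted p = 0.474). Ackr1, a decoy receptor of venules and red cells that binds many inflammatory chemokines, stood at 3.59, 2.36 and 2.98 FPKM and at 9.49, 7.78, 5.88 and 4.36 FPKM (0.97 ± 0.25, limma adjusted p = 0.417). For both, all knockouts lay above all controls. The same separation was found for Rarres2, the gene of the attractant chemerin, at 45.9, 29.1 and 29.4 FPKM and 132, 77.1, 54.9 and 52.7 FPKM (1.12 ± 0.35, limma adjusted p = 0.546).

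Cx3cl1, a membrane-bound ligand, and its receptor Cx3cr1, carried by resident macrophages, separated the groups in the other direction. Cx3cl1 stood at 16.5, 11.8 and 10.5 FPKM in controls and at 10.3, 8.39, 9.92 and 7.95 FPKM in knockouts (-0.42 ± 0.19, limma adjusted p = 0.744). Cx3cr1 stood at 5.37, 6.15 and 5.61 FPKM and at 4.19, 4.79, 2.30 and 2.19 FPKM (-0.65 ± 0.24, limma adjusted p = 0.652). At lactation, 2 of 7 tested genes of this list separated the groups, against the 6.06% of all genes: Rarres2 and its receptor Cmklr1, both higher in knockouts. Of the genes that relay signals inside the cell from chemokine receptors, 13 were tested at involution and 10 at lactation. None had an unadjusted p under 0.05 (limma), against 6.84% of all genes at involution and 2.38% at lactation. With so few genes, a count of 0 does not set them apart from all genes.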

How the data were processed

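RNA sequencing of mouse mammary gland tissue was deposited as 2 tables of FPKM, 1 for each stage, with 23951 gene symbols in 13 libraries. Per the labels' protocols, total RNA was purified on RNeasy columns and made into libraries with the TruSeq RNA kit. The authors' tools, per the submitters' processing notes, were CASAVA, cutadapt and TopHat, and their build was mm9. Which program, annotation and scaling made the deposited FPKM was not given in the sources used here. Groups and mouse numbers came from the titles.

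Each library of a stage was rescaled by its median-of-ratios factor (0.953 to 1.116 at lactation, 0.979 to 1.022 at involution) and transformed to log2(rescaled FPKM + 1), which understates changes of low genes. Tests covered genes at 1 FPKM or more in 3 or more libraries and used limma 3.58.1 (lmFit, eBayes with trend) in R 4.3.3, two-sided, and p-values were adjusted by Benjamini-Hochberg across every gene of the fit, with 0.05 as the threshold. The difference between stages was a contrast in a joint fit in which each table was rescaled within itself. Library totals are not given, so no counting intervals are printed. Relative depth came from ratios of values under 0.3 FPKM, which are ratios of small fragment counts: 70.9% of 27125 pairs at lactation, and 69.5% of 33942 pairs at involution, matched a ratio of whole numbers of at most 5 (tolerance 0.02 in log2). The fit and the depth estimate were tested on simulated data.

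Members and gene lists were chosen with earlier results of these data known. Values in every library are given for the 10 members with the smallest p at involution, the 5 at lactation and the 5 for the difference between stages, the 8 highest at involution and the 8 with the largest difference between stages in controls, and ranges for the rest, except 1 gene that is not reported here. The lists were 10 roles of members, 2 of other chemokine genes and cell type markers.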

Additional observations from a re-analysis of the deposited data

Results flagged for a closer look

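Ccl3 in the involuting knockout glands was tested as 1 of 27 genes for a gland far from the others of its group, a check made only in the group of 4. Knockout M43767 stood at 2.18 FPKM and the other 3 knockouts at 0.930 to 1.05 FPKM. The gap to the nearest gland was 0.906 of the whole range. Chance alone flags about 1 in 20 groups. Relative depth of M43767 was 0.932, between those of the other knockouts.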

How the results depend on the processing

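No member had an adjusted p under 0.05 under any alternative run, and none of the differences followed under every alternative (those of smallest p within and between stages, and the 8 largest stage differences in controls) changed its sign. Outside these, the stage differences of Ccl5, Cxcr4 and Ccl25 in controls turned without rescaling, and the lactation differences of Ccl5 and Cxcr4 turned without control M43768. With weights estimated for each library, unadjusted p under 0.05 occurred in 5 members at involution, 8 at lactation and 6 for the difference between stages, against 9.86%, 14.1% and 7.26% of all genes. For that difference the count was 2 with a pseudocount of 0.1 (3.01% of all genes). It was 1 of 26 members with a filter on every library of a group (3.5%). It was also 1 without rescaling (3.4%) and with quantile normalization (3.44%). Without a filter, the lactation count was 3 of 42 members (3.12% of all genes), and the median difference at lactation was -0.031. With 1 library left out, the lactation median ran from -0.185 to 0.274. The counts of p under 0.05 then ran from 1 to 9 at involution (4.53 to 9.31% of all genes). They ran from 0 to 3 at lactation (1.01 to 6.02%) and from 0 to 5 for the difference (2.4 to 5.88%). The counts of separated members ran from 3 to 9 at involution (9.88 to 17.2%) and from 1 to 4 at lactation (9.48 to 22.3%). The median difference between stages was 1.66 in controls and 2.02 in knockouts with a pseudocount of 0.1, and 1.39 and 1.52 without rescaling. The cause was not tested. Separation of groups was also counted after rescaling, an alternative chosen after seeing the data, and gave 2 and 1 members as before.

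With 3 or 4 glands a group, differences of the size seen for Ccl6 or Cxcl12 did not pass the adjustment. Exact zeros can be entries without an estimate, and values under 1 FPKM rest on few fragments. No paired analysis was possible because the groups compared within a stage share no mouse number. Across stages, 2 of 11 mouse numbers recur, and a fixed term for the number leaves 0 residual degrees of freedom in the joint fit. With the number as a random replicate block, chosen after seeing the data, the estimated correlation was 0.699 from these 2 pairs, and unadjusted p under 0.05 for the difference between stages occurred in 4 members (8.36% of all genes) and adjusted p under 0.05 in 0.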
